A study of Mus musculus with 27 samples.

Results

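House dust mite extract (HDM), an aeroallergen used to induce allergic airway inflammation in mice, was given without any later particle exposure to the animals described here, and the response was read across all genes of the whole lung. The comparison takes the 13 libraries, of 27 in the series, whose labels end in HDM/SAL (HDM_SAL, n = 6) or PBS/SAL (PBS_SAL, n = 7). All were male wild type mice of the C57Bl/6 strain (genotype label C57Bl/6J), 7 to 8 weeks old. HDM_SAL mice were instilled by the oropharyngeal route 5 times with 10 µg of HDM in 50 µl, 2 to 3 days apart, and PBS_SAL mice with phosphate-buffered saline (PBS). Both groups received 100 µl of saline 24 h after the fifth dose, so the controls carry the same 6 instillations, and lungs were frozen 24 h after that. Other mice of the series received combustion products (CP, 2 mg per ml in 100 µl) in place of the last saline: 7 after HDM (HDM_CP) and 7 after PBS (PBS_CP). RNA came from whole lung with polyA selection, and nothing in the labels says whether mice of 1 group shared a cage or a day, so p-values measure the spread between these lungs only.

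Repeated allergen acts first on the airway epithelium, whose club cells turn into mucus-secreting goblet cells under type 2 cytokines, while recruited monocytes and tissue macrophages take up an alternatively activated state. Injured and stimulated epithelium, macrophages and lymphocytes can enter the cell cycle, which reads out in bulk RNA through genes transcribed mainly around mitosis. Lung genes are also under control of the circadian clock and of glucocorticoid hormone, whose receptor induces a set of anti-inflammatory genes in nearly every cell type.

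Levels are given as CPM (the deposited estimated counts scaled by edgeR's effective library sizes), and changes as log2 fold changes with their standard error (SE). A gene is said to rise or fall only where edgeR's quasi-likelihood test gave a Benjamini-Hochberg adjusted p under 0.05 over the 24629 genes tested, of 56941 in the table, and every adjusted p below is from that test unless another is named. Library totals of the estimated counts ranged from 56.3 M to 84.5 M. Mitochondrially encoded genes took 2.93% ± 0.586 of the counts in HDM_SAL (SD, n = 6) and 2.29% ± 0.137 in PBS_SAL (SD, n = 7; exact permutation test, two-sided, p = 0.0035), with HDM_SAL 50, 54 and 99 at 3.26%, 3.86% and 3.09%; the part of this in the results was not tested. Transcripts of liver genes were high in HDM_SAL 50: albumin (Alb) had 6129 estimated counts there, against 12 to 66 in the other HDM_SAL libraries and 22 to 144 in PBS_SAL, so liver genes are not interpreted.

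After HDM, 786 genes were higher and 553 lower by the test, 5.44% of the genes tested (3.19% higher and 2.25% lower). The rises were larger than the falls: the median log2 change was 0.79 among genes that rose and -0.33 among those that fell, and 290 rose but 16 fell by at least 2-fold. Over all genes tested the median was 0.01. In 251 of the 786 rises and 157 of the 553 falls every HDM_SAL library lay beyond every PBS_SAL library (over all genes tested, 1.97% had groups that did not overlap, 1.17% higher and 0.804% lower). Protein-coding genes were called more often (7.45%) than long noncoding RNA genes (1.82%). The split between directions depended on the analysis: limma on the deposited TPM values, as log2(TPM + 1), gave 521 higher and 849 lower. That fit differs from the main one in test, scaling and filter as well as in unit, and the part of each was not tested. On the estimated counts, limma voom with quality weights gave 918 higher and 835 lower. The counts also rested on single libraries. They came to 602 in all without HDM_SAL 99, 696 without HDM_SAL 54, 699 without HDM_SAL 50 and 759 without PBS_SAL 80. With the 3 HDM_SAL libraries of high mitochondrial share all left out, 3 HDM_SAL libraries remained and 34 genes were called. In every list described below the count of called members in either direction then lay between 0 and 2. Those 3 libraries also had the highest summed levels of goblet cell genes in the group (2568 to 4775 CPM, against 525 to 2298 CPM). The same held for genes of alternative macrophage activation and of mitosis. This fit therefore also removes the strongest responses and leaves a smaller group, and the part of each in the lost calls was not tested. Genes are described below mainly where no single library decided their call, and the exceptions are named.

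Goblet cell genes had the highest median change of the cell type lists (3.68), with 15 of 20 measured markers higher and none lower. Of the genes given next, Pigr is in that list, whereas Chia1, Slc5a1 and Aqp3 are not. In this whole-lung tissue, more cells of a type and more RNA per cell cannot be told apart, here or in any list below. Chia1, which encodes the acidic chitinase that digests the chitin of mites and insects (GRCm39 chr3:106020545-106039436), was at 33.2 to 74.9 CPM (median 65.1) in PBS_SAL and 242 to 768 CPM (median 483) in HDM_SAL. Every HDM_SAL lung lay above every PBS_SAL lung, and Chia1 rose by 3.12 ± 0.32 (adjusted p = 1.1e-05). Slc5a1, the sodium-coupled glucose transporter that also moves water, was at 2.54 to 4.62 CPM (median 3.1) in PBS_SAL and 7.86 to 21.7 CPM (median 15.1) in HDM_SAL. The groups again lay apart, and Slc5a1 rose by 2.14 ± 0.27 (adjusted p = 6.43e-05). Aqp3, an aquaglyceroporin of airway basal cells, rose by 1.92 ± 0.30 (adjusted p = 0.000382), with 0.652 to 1.96 CPM in PBS_SAL and 2.43 to 7.18 CPM in HDM_SAL. Basal cells as a list did not follow it: Aqp3 was the sole member of 8 measured to change, Trp63 differed by -0.29 ± 0.23 (adjusted p = 0.529), and Krt5 was at 0 to 21 estimated counts in PBS_SAL and 0 to 20 in HDM_SAL. Pigr, the receptor that carries IgA across the epithelium, rose by 2.86 ± 0.33 (adjusted p = 5.95e-05), with 23.4 to 64.7 CPM in PBS_SAL and 119.5 to 479 CPM in HDM_SAL.

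Of 21 measured airway ion and water transport genes 7 rose and none fell (1 fell without PBS_SAL 105 or HDM_CP 98), and their median change was 0.10. They include the potassium channel gene Kcnj15 (0.64 ± 0.13), the channel subunit gene Kcne3 (0.89 ± 0.19) and the anion exchanger gene Slc26a4 (4.25 ± 0.50). The airway chloride channel gene Cftr differed by 0.35 ± 0.14 (adjusted p = 0.132). Without HDM_SAL 50, 54 and 99, 2 of the 7 were called. Genes of protein folding in the endoplasmic reticulum went both ways. Sdf2l1, a chaperone cofactor, rose by 0.77 ± 0.14 (adjusted p = 0.00163) and the secretory transcription factor gene Creb3l1 by 0.72 ± 0.12 (adjusted p = 0.000896). Herpud1, which works in the degradation of misfolded proteins, was at 154 to 185 CPM (median 161) in PBS_SAL and 99.5 to 131 CPM (median 111) in HDM_SAL. All HDM_SAL lungs lay below all PBS_SAL lungs, and Herpud1 fell by 0.55 ± 0.08 (adjusted p = 0.000382). In that list 7 of 28 genes rose and 1 fell; 12 rose without HDM_SAL 72 and 4 without HDM_SAL 99.

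**Figure D1:**
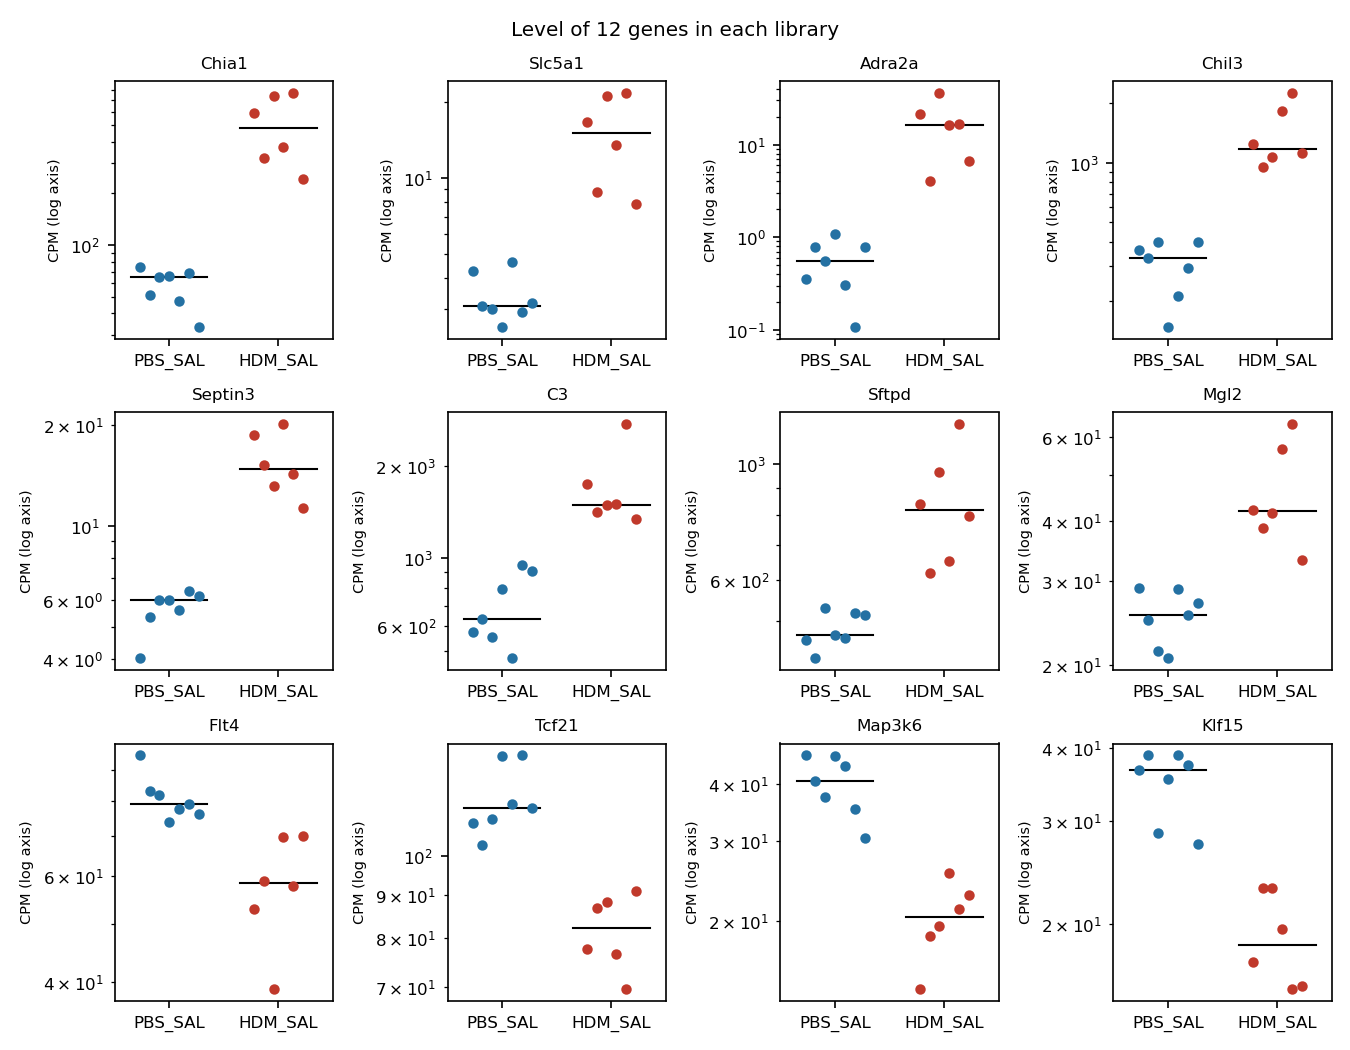
Level of 12 genes in each library (CPM, log axis), with PBS_SAL (n = 7) in blue and HDM_SAL (n = 6) in red; the horizontal line is the group median. The 8 genes of the upper rows are higher and the 4 of the lowest row lower in HDM_SAL, and in each panel the groups do not overlap.

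Club cell identity genes moved unevenly. The secretoglobin gene Scgb1a1, the main club cell product, was at 15886 to 22834 CPM in PBS_SAL and 16099.9 to 33001 CPM in HDM_SAL and did not pass the test (0.23 ± 0.18, adjusted p = 0.531), nor did the cytochrome gene Cyp2f2 (-0.30 ± 0.20, adjusted p = 0.432). By contrast, the secreted protein gene Lypd2 rose by 1.54 ± 0.30 (adjusted p = 0.00299), the matrix protein gene Chad by 1.42 ± 0.27 (adjusted p = 0.00299) and the glutathione transferase gene Gsto1 by 1.04 ± 0.20 (adjusted p = 0.00362), each with overlapping groups. In all, 5 of 20 club cell genes rose and 1 fell, with a median of -0.08. Falls numbered 3 with DESeq2, limma voom or only the 13 libraries compared. The 1 fall was lost without PBS_SAL 61, 80 or 81 or HDM_SAL 50 or 99, and 4 genes fell without HDM_CP 98.

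Of 24 ciliated cell genes 5 rose with a median of 0.45; without HDM_SAL 54 the count was 3 and the median 0.26, and without HDM_SAL 50, 54 and 99 the median was 0.03. Mcidas, which starts the multiciliated programme (GRCm39 chr13:113130379-113136928), was at 0.352 to 1.22 CPM (median 0.791) in PBS_SAL and 2.19 to 7.71 CPM (median 3.17) in HDM_SAL. The groups did not overlap, and Mcidas rose by 2.35 ± 0.46 (adjusted p = 0.0031). Cdc20b, close by (GRCm39 chr13:113171645-113227729) and active in centriole amplification, rose by 2.03 ± 0.45 (adjusted p = 0.00814), and Deup1, a component of the deuterosome on which centrioles form, by 1.37 ± 0.30 (adjusted p = 0.00799). Ccno, a cyclin-like gene also needed for making centrioles, rose by 1.37 ± 0.32 (adjusted p = 0.012), with an adjusted p of 0.059 without HDM_SAL 54 and of 0.0578 by limma on log2(TPM + 1) without a filter. The fifth was Dnah9, a dynein of the mature cilium, which rose by 0.64 ± 0.19 (adjusted p = 0.0474); its call was lost on leaving out any 1 of 21 of the 27 libraries (adjusted p from 0.0508 to 0.189) and in a fit of only the 13 libraries compared (adjusted p = 0.142). Foxj1, the later regulator of the programme, differed by 0.52 ± 0.20 (adjusted p = 0.127) and Tppp3 by -0.21 ± 0.13 (adjusted p = 0.392).

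Alveolar type 2 cells, which make surfactant, showed higher collectins while Sftpc did not pass the test. Sftpd, a collectin that binds microbial and allergen sugars, was at 424 to 530.0 CPM (median 469.7) in PBS_SAL and 618 to 1194 CPM (median 817) in HDM_SAL. Every HDM_SAL lung lay above the PBS_SAL lungs, and Sftpd rose by 0.81 ± 0.12 (adjusted p = 0.000382). The other collectin gene, Sftpa1, rose by 0.56 ± 0.08 (adjusted p = 0.000218), with 1975 to 2478 CPM in PBS_SAL and 2719.7 to 3607 CPM in HDM_SAL. Chil1, a chitinase-like protein without enzyme activity, rose by 1.17 ± 0.17 (adjusted p = 0.000321), and the lung chemokine gene Cxcl15 by 0.60 ± 0.10 (adjusted p = 0.00128). Sftpc, the type 2 cell-restricted surfactant gene, was at 10675 to 12130.0 CPM in PBS_SAL and 9415 to 13324 CPM in HDM_SAL (0.04 ± 0.06, adjusted p = 0.763). In all, 7 of 20 type 2 cell genes rose and none fell (median 0.22). The median over 18 alveolar type 1 genes was -0.10, with Ager, which encodes the receptor RAGE, at -0.08 ± 0.09 (adjusted p = 0.685). Of 16 genes of transitional alveolar epithelium, the state between type 2 and type 1 cells, Itgb6, a subunit of an integrin that activates TGF-beta, rose by 0.59 ± 0.14 (adjusted p = 0.0102) (adjusted p = 0.0529 by limma on log2(TPM + 1) without a filter) and Tnip3, an inhibitor of NF-kappaB, by 1.55 ± 0.26 (adjusted p = 0.000896). The keratin gene Krt8, the usual marker of that state, differed by 0.13 ± 0.11 (adjusted p = 0.573). Ndrg1 fell by 0.46 ± 0.08 (adjusted p = 0.00145), and leaving out 1 of PBS_SAL 61, HDM_SAL 52, HDM_SAL 100 or PBS_CP 101 added 1 more fall.

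**Figure D2:**
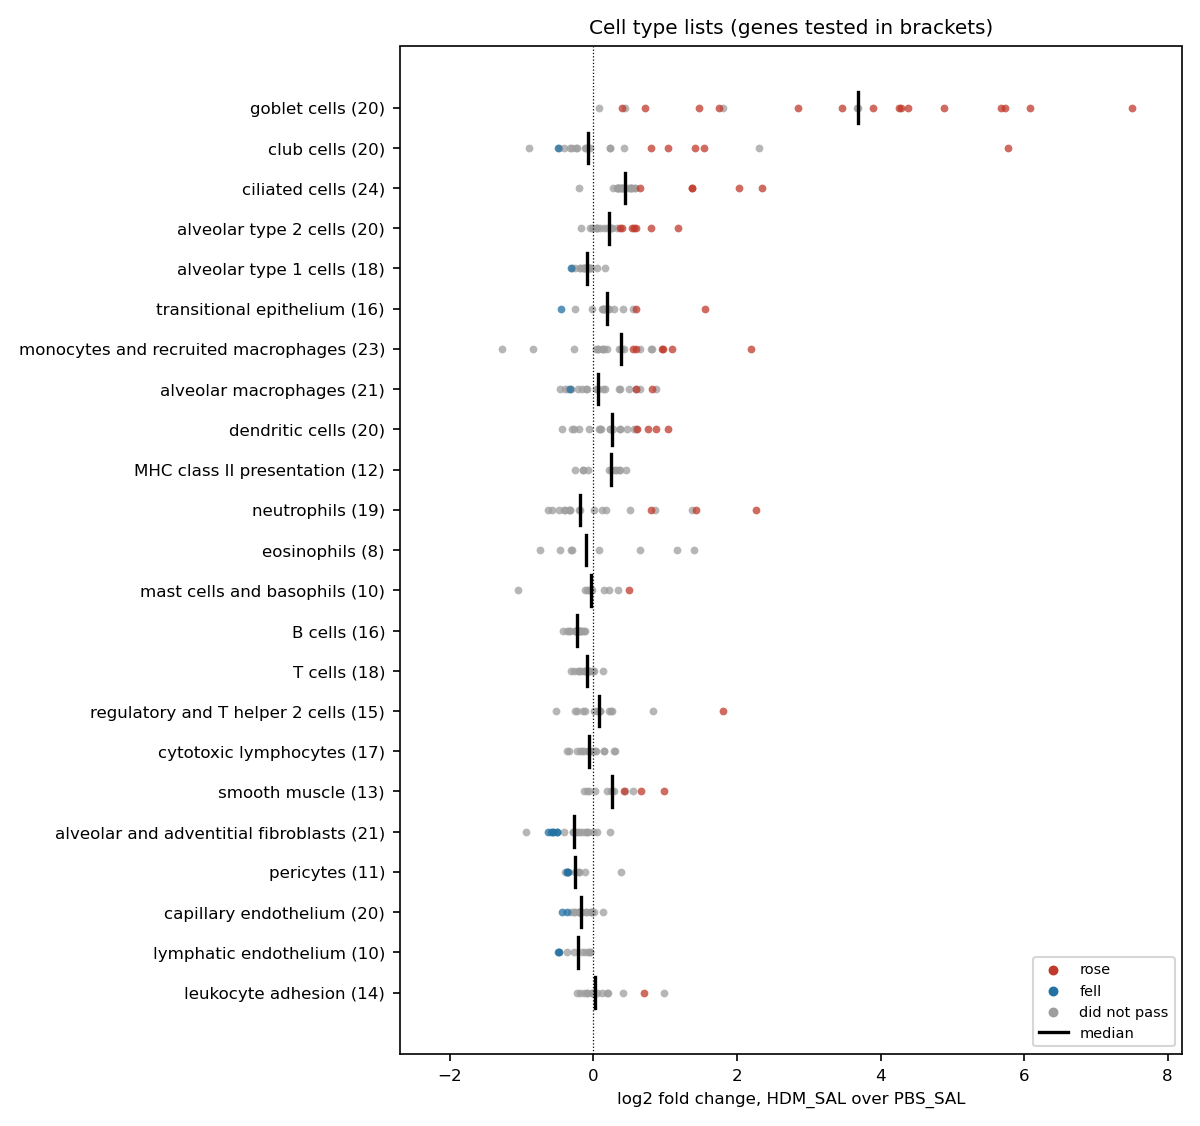
Log2 fold change of HDM_SAL over PBS_SAL for the measured genes of 23 cell type and adhesion lists, 1 point per gene, red where the gene rose, blue where it fell and grey where it did not pass the test, with the list's median as a black bar. Goblet cell genes stand furthest to the right, B and T cell genes hold no called gene, and the called genes of the fibroblast, pericyte and endothelial lists are all lower, while the adhesion list holds 1 gene that rose.

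Mitosis had the largest share of called genes among the lists. Of 30 genes that act in mitosis, 29 rose and none fell, 16 of them with groups that did not overlap, and the median change was 1.18. Their summed level was 113 to 199.6 CPM (median 143) in PBS_SAL and 215 to 508 CPM (median 322) in HDM_SAL. All 6 HDM_SAL lungs were higher than all 7 PBS_SAL lungs, with HDM_SAL 99 highest and HDM_SAL 52 lowest. Cdk1, the kinase that drives entry into mitosis, was at 1.88 to 3.9 CPM (median 2.75) in PBS_SAL and 5.52 to 13.9 CPM (median 8.43) in HDM_SAL. No library of one group lay within the range of the other, and Cdk1 rose by 1.75 ± 0.26 (adjusted p = 0.000321). Ube2c, which charges the anaphase-promoting complex with ubiquitin, was at 2.61 to 4.74 CPM (median 3.3) in PBS_SAL and 5.71 to 16 CPM (median 8.48) in HDM_SAL. Without overlap, it rose by 1.43 ± 0.23 (adjusted p = 0.000675). Cdc20, the activator of that complex, was at 4.3 to 6.07 CPM (median 4.51) in PBS_SAL and 5.26 to 18.7 CPM (median 12) in HDM_SAL. Here 1 or more HDM_SAL lungs lay within the PBS_SAL range, and Cdc20 rose by 1.35 ± 0.26 (adjusted p = 0.00317). The proliferation marker Mki67 rose by 1.24 ± 0.27 (adjusted p = 0.00689), Top2a, which untangles DNA, by 1.37 ± 0.26 (adjusted p = 0.00299), and the survivin gene Birc5 by 1.39 ± 0.23 (adjusted p = 0.000718). Sapcd2, which orients the mitotic spindle and is not in that list, was among the 10 rises of smallest p; it rose by 1.89 ± 0.24 (adjusted p = 6.43e-05), with 0.972 to 1.7 CPM in PBS_SAL and 2.76 to 8.36 CPM in HDM_SAL. No single library moved the count of mitotic genes by more than 1.5 times. Without HDM_SAL 50, 54 and 99 none of the 29 passed, while Sapcd2 did, and the list's median was 0.82.

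Genes of DNA replication, the phase before, passed in smaller number. Of 26 members 6 rose and none fell, and the median was 0.34 (0.15 without HDM_SAL 50, 54 and 99, when none passed). Rrm2, the ribonucleotide reductase subunit, rose by 1.11 ± 0.25 (adjusted p = 0.00804), the thymidine kinase gene Tk1 by 0.60 ± 0.12 (adjusted p = 0.00295), the epigenetic maintenance factor gene Uhrf1 by 1.04 ± 0.24 (adjusted p = 0.00993) and the replication initiator gene Mcm10 by 0.96 ± 0.23 (adjusted p = 0.0145), or 0.61 (adjusted p = 0.0756) by limma on log2(TPM + 1) without a filter. The helicase subunit gene Mcm2 differed by 0.16 ± 0.10 (adjusted p = 0.372) and the sliding clamp gene Pcna by 0.18 ± 0.06 (adjusted p = 0.091, or 0.0425 without HDM_SAL 52). Rrm2, Uhrf1 and Mcm10 were at under 20 CPM in every library compared.

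Mitotic genes are known to share a promoter element, the cell cycle homology region (CHR, TTTGAA on either strand), placed close to the start of transcription. The promoters of the 3 mitotic genes with values in full above are shown because all hold that element. Each is the RefSeq window of 250 bases before to 50 after the gene's start in GRCm38.p6 (an older build than the GRCm39 of the counts), 5′ to 3′ on the gene's strand, with CHR matches in capitals.
Cdk1 (chr10:69352863-69353162, minus strand): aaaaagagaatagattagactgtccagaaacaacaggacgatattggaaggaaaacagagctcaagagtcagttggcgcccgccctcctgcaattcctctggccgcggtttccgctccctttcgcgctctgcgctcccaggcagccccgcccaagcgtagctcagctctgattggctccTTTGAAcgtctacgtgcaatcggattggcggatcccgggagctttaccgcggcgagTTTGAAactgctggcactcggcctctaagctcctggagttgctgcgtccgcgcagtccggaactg
Ube2c (chr2:164769679-164769978, plus strand): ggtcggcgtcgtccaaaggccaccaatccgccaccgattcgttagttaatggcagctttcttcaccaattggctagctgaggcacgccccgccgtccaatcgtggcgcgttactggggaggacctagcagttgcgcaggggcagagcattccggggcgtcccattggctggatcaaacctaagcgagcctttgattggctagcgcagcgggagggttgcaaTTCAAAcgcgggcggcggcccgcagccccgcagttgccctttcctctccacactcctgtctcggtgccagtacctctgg
Cdc20 (chr4:118437294-118437593, minus strand): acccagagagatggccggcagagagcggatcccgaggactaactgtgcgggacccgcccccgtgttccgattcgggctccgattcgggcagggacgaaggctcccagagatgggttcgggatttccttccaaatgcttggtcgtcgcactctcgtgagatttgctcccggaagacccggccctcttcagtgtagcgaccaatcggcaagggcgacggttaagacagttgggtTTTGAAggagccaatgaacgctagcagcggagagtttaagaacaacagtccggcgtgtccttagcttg
Counted from the start of transcription, the element begins at base -71 and again at -15 in Cdk1, at -29 in Ube2c (read on the other strand) and at -18 in Cdc20. RefSeq promoters were matched for 25 of the 30 mitotic genes, 26 windows in all, and 20 of these (76.9%) hold a CHR, against 17.9% of all 32851 windows. A match lies within 50 bases of the start in 19 of the 26 windows (73.1%) and in 4.94% of all windows. Of the replication genes' 22 windows, 2 (9.09%) hold a CHR. The CCAAT box (CCAAT, either strand) was common in both, in 80.8% of mitotic and 68.2% of replication windows, against 37.4% of all. A match is a description of the letters and shows no binding.

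**Figure D3:**
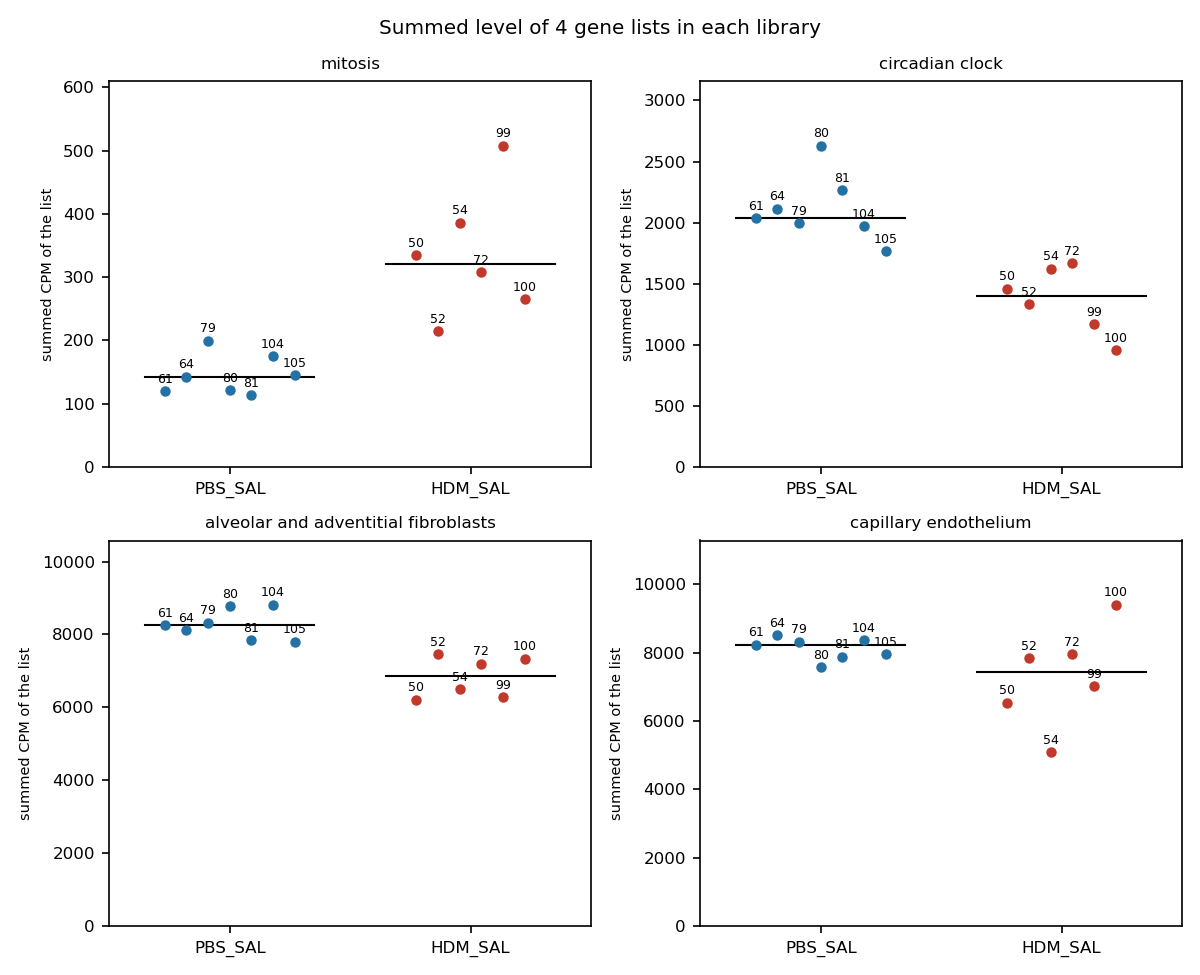
Summed CPM of the genes of 4 lists in each library, labelled by its number, with PBS_SAL in blue, HDM_SAL in red and the group median as a line; axes start at 0. The groups do not overlap for mitosis (higher in HDM_SAL), the circadian clock and fibroblast genes (lower in HDM_SAL), whereas capillary endothelial genes spread from 5094 CPM in HDM_SAL 54 to 9401 CPM in HDM_SAL 100, wider than PBS_SAL.

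Monocyte and macrophage genes rose in part. Ccr2, the receptor that brings monocytes out of the marrow, was at 52.9 to 76 CPM (median 65.4) in PBS_SAL and 79.1 to 137 CPM (median 89) in HDM_SAL. All HDM_SAL lungs were higher, and Ccr2 rose by 0.59 ± 0.11 (adjusted p = 0.00295). Cd14, the lipopolysaccharide co-receptor, rose by 1.10 ± 0.19 (adjusted p = 0.00145). Chil3, a secreted chitinase-like protein of monocytes and macrophages, was at 147 to 399.9 CPM (median 332) in PBS_SAL and 954 to 2253 CPM (median 1180.1) in HDM_SAL. The groups lay far apart, and Chil3 rose by 2.20 ± 0.30 (adjusted p = 0.000175); it shares near-identical sequence with a paralog and its estimated counts may be shared with it. Csf1r, the growth factor receptor of macrophages, did not pass (0.04 ± 0.07, adjusted p = 0.823). Nor did Adgre1, which encodes F4/80 (0.12 ± 0.27, adjusted p = 0.86). Adgre1 was at 75.3 CPM in PBS_SAL 105 and at most 23.6 CPM in the other PBS_SAL lungs, and passed without that library (0.59, adjusted p = 0.0281). Of 23 monocyte and recruited macrophage genes 6 rose (3 without PBS_SAL 80 or without HDM_SAL 99) and none fell, with a median of 0.38. In that list 20 changes were positive, but the lowest was -1.27, and 1 gene was lower in every HDM_SAL lung than in every PBS_SAL lung. Falls numbered 2 with only the 13 libraries compared or without HDM_CP 98, and 1 with DESeq2 or without HDM_CP 45. Besides Ccr2, Cd14 and Chil3, the genes that rose were C1qa, C1qc and F13a1, whose calls were lost without PBS_SAL 80 or without HDM_SAL 99.

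Genes of resident alveolar macrophages went both ways. The surface marker gene Siglecf (-0.32 ± 0.21, adjusted p = 0.442) and the lineage factor gene Pparg (-0.22 ± 0.10, adjusted p = 0.23) did not pass. Krt79 rose by 0.82 ± 0.17 (adjusted p = 0.00582), with 8.56 to 14.9 CPM in PBS_SAL and 18 to 22 CPM in HDM_SAL, and Mertk, a receptor for engulfing dying cells, fell by 0.33 ± 0.07 (adjusted p = 0.0094). The list of 21 gave 2 rises and 1 fall with a median of 0.06, where 5.44% of all genes tested were called. The list's other rise was lost on leaving out any of PBS_SAL 61, 64, 80 and 81 or HDM_SAL 50, 72 and 99. Among dendritic cell genes Mgl2, a lectin of type 2-inducing conventional dendritic cells and of alternatively activated macrophages, was at 20.6 to 28.9 CPM (median 25.4) in PBS_SAL and 33.1 to 63.9 CPM (median 41.9) in HDM_SAL. Without overlap between the groups, Mgl2 rose by 0.86 ± 0.15 (adjusted p = 0.00141). In that list 4 of 20 rose (1 without PBS_SAL 61, PBS_SAL 64 or HDM_SAL 99, and 2 without PBS_SAL 79 or 80). Of the other 3, Xcr1, the chemokine receptor of cross-presenting dendritic cells, rose by 0.76 ± 0.20 (adjusted p = 0.0226), Batf3, a transcription factor of those cells, by 1.03 ± 0.28 (adjusted p = 0.028) and Flt3, the growth factor receptor of dendritic cells, by 0.61 ± 0.17 (adjusted p = 0.0312). All of these 3 calls were lost on log2(TPM + 1) and without PBS_SAL 61, PBS_SAL 64 or HDM_SAL 99, and that of Batf3 also with only the 13 libraries compared (adjusted p = 0.0588). Clec9a, another marker of cross-presenting cells, differed by -0.20 ± 0.10 (adjusted p = 0.233, or 0.0326 without HDM_SAL 100), and none of 12 genes of MHC class II presentation passed (median 0.25), though 3 rose when only the 13 libraries compared were fitted.

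Of 16 genes of alternative macrophage activation, 8 rose (median 0.92; 2 without HDM_SAL 50, 54 and 99). Among these, Chil3 is also in the monocyte list and Mgl2 in the dendritic cell list, and a further member is in the club cell list. Their rises are therefore not separate from those given above. Arg1, the arginase that competes with nitric oxide synthesis, was at 0.900 to 2.18 CPM (median 1.62) in PBS_SAL and 3.08 to 24.4 CPM (median 5.5) in HDM_SAL, the highest value being that of HDM_SAL 99. It rose by 2.36 ± 0.63 (adjusted p = 0.0279) with no overlap between groups, but its adjusted p was 0.147 without HDM_SAL 99, 0.0652 without PBS_SAL 80, and between 0.0524 and 0.0546 without PBS_SAL 61, PBS_SAL 79 or HDM_SAL 50, and it was 0.192 by limma voom and 0.0563 with runs of library numbers as a block. Socs1, a feedback inhibitor of cytokine receptors, rose by 0.98 ± 0.17 (adjusted p = 0.00145). Among receptors outside that list, Cd209d, a lectin of the DC-SIGN family, rose by 1.95 ± 0.36 (adjusted p = 0.00195) at a low level, 0.226 to 0.819 CPM in PBS_SAL and 0.975 to 3.09 CPM in HDM_SAL, and Tnfrsf9, the costimulatory receptor 4-1BB, by 1.80 ± 0.35 (adjusted p = 0.00296).

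Lymphocyte lists held almost no called gene, but with 5.44% of all genes tested called, lists of 15 to 18 genes would hold few in any case. None of 16 B cell genes and none of 18 T cell genes passed, with medians of -0.22 and -0.08. The B cell median lay between -0.38 (without HDM_SAL 52) and -0.14 (without HDM_SAL 100) with 1 library left out. The T cell median was 0.12 without HDM_SAL 50, 54 and 99. The T cell receptor component gene Cd3e differed by -0.14 ± 0.20 (adjusted p = 0.775), and the T cell coreceptor genes Cd4 by 0.13 ± 0.20 (adjusted p = 0.781) and Cd8a by -0.09 ± 0.19 (adjusted p = 0.859). The transcription factor gene Foxp3, which marks regulatory T cells, differed by 0.26 ± 0.26 (adjusted p = 0.626), and none of 17 cytotoxic lymphocyte genes passed. Of the regulatory and T helper 2 cell list of 15, Tnfrsf9 alone rose. The antibody gene Ighg1, the IgG isotype of type 2 responses, had 17 to 69 estimated counts in PBS_SAL and 86 to 325 in HDM_SAL. The groups did not overlap, yet the change of 1.84 ± 1.10 did not pass (adjusted p = 0.373) in the fit to all 27 libraries, whose spread includes HDM_CP, where its counts ran from 82 to 35946. Fitted to only the 13 libraries compared, Ighg1 passed (1.82, adjusted p = 0.00998).

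Eosinophil transcripts were close to absent. Epx, the eosinophil peroxidase gene, and Prg3, a granule protein gene, had 0 estimated counts in all 13 libraries; a floor of 3 counts corresponds to at most 0.0532 CPM. The granule gene Prg2 had 3 to 28 counts in PBS_SAL and 0 to 22 in HDM_SAL, and the eotaxin receptor gene Ccr3 had 11 to 53 and 0 to 56. None of 8 measured eosinophil-associated genes passed (1 did with DESeq2, with limma voom and with only the 13 libraries compared, and 2 did without the libraries under 60 M). Ear2, a ribonuclease gene also expressed by alveolar macrophages and one of a family of near-identical genes, was at 39.4 to 64.3 CPM in PBS_SAL and 68.1 to 109.9 CPM in HDM_SAL, without overlap, and missed the threshold (0.65 ± 0.20, adjusted p = 0.0517); it passed with DESeq2 (adjusted p = 0.0226), with only the 13 libraries compared (adjusted p = 0.0136), without HDM_SAL 52 (adjusted p = 0.0491) and without PBS_CP 102, HDM_CP 45, HDM_CP 67 or HDM_CP 96, which enter the fit through the shared spread (adjusted p from 0.027 to 0.0464). Neutrophil genes split: S100a8 differed by -0.48 ± 0.32 (adjusted p = 0.446) and S100a9 by -0.40 ± 0.31 (adjusted p = 0.519), whereas Retnlg rose by 1.43 ± 0.33 (adjusted p = 0.0105) and Ltf, the lactoferrin gene, by 2.26 ± 0.50 (adjusted p = 0.00951). Ltf is also an airway secretory product, and the list's median over 19 genes was -0.19 with 3 rises (0.01 with none without HDM_SAL 50, 54 and 99).

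Chemokines that recruit phagocytes rose in part. Of 17 neutrophil and monocyte chemokine genes 5 rose, with a median of 1.13; without HDM_SAL 99 the count was 3 and the median 0.69, and DESeq2 called 8. Cxcl5, an epithelial chemokine for neutrophils, was at 0.198 to 0.634 CPM (median 0.421) in PBS_SAL and 1.35 to 12.5 CPM (median 2.44) in HDM_SAL. Again the groups lay wholly apart, and Cxcl5 rose by 3.29 ± 0.58 (adjusted p = 0.00161), but missed the threshold by limma voom (adjusted p = 0.0742). Ccl7, a monocyte chemokine, rose by 2.00 ± 0.38 (adjusted p = 0.00253), with 0.254 to 0.861 CPM in PBS_SAL and 1.41 to 4.58 CPM in HDM_SAL. Cxcl2 differed by 1.24 ± 0.57 (adjusted p = 0.214) and Ccl2 by 1.21 ± 0.42 (adjusted p = 0.0943, or 0.0248 without PBS_SAL 104 and 0.0372 with DESeq2). Lif, an interleukin 6 family cytokine, rose by 1.02 ± 0.26 (adjusted p = 0.0211), a call lost with runs of library numbers as a block (adjusted p = 0.0629). Pla2g4c, a phospholipase that frees arachidonic acid, rose by 2.46 ± 0.48 (adjusted p = 0.00286), while the inducible cyclooxygenase gene Ptgs2 differed by 0.55 ± 0.23 (adjusted p = 0.177, or 0.0456 without PBS_SAL 80).

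Some complement and other host defence genes rose. C3, on which all complement pathways converge (GRCm39 chr17:57510970-57535136), was at 472 to 948 CPM (median 636) in PBS_SAL and 1338 to 2733 CPM (median 1494) in HDM_SAL. Each HDM_SAL lung lay above each PBS_SAL lung, and C3 rose by 1.29 ± 0.18 (adjusted p = 0.00018). Cfi, the protease that inactivates C3b, rose by 2.01 ± 0.30 (adjusted p = 0.000297) at a far lower level, 0.394 to 0.747 CPM in PBS_SAL and 1.47 to 3.21 CPM in HDM_SAL. Serping1, the inhibitor of the C1 proteases, fell by 0.32 ± 0.08 (adjusted p = 0.0146). Of 22 complement genes 6 rose and 1 fell, with 3 rises left without HDM_SAL 99. The siderophore-binding protein gene Lcn2 rose by 1.62 ± 0.34 (adjusted p = 0.00676) and the protease inhibitor genes Serpina3n by 0.77 ± 0.16 (adjusted p = 0.00422) and Serpina3g by 1.59 ± 0.26 (adjusted p = 0.000729); the last 2 belong to a family of close paralogs. Interferon genes gave few calls, as did all genes tested, of which 3.19% were called higher. In the type I list 22 of 24 changes were positive. Of 24 type I interferon response genes 2 rose (0 without HDM_SAL 99, 5 without HDM_SAL 72, 4 without HDM_SAL 50 and 1 without PBS_SAL 61, 64, 79 or 80), with a median of 0.43 that was 0.19 without HDM_SAL 99; DESeq2 called 6. Ifit1 differed by 0.62 ± 0.24 (adjusted p = 0.139). Of 25 interferon gamma response genes the guanylate-binding protein gene Gbp11 alone rose (0.63 ± 0.15, adjusted p = 0.0149, or 0.0557 by limma on log2(TPM + 1) without a filter).

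Adra2a, a receptor for noradrenaline that lowers cyclic AMP (GRCm39 chr19:54032582-54037413), stood far apart between the groups. It was at 0.106 to 1.07 CPM (median 0.557) in PBS_SAL and 4.05 to 35.8 CPM (median 16.5) in HDM_SAL. Every HDM_SAL lung lay above every PBS_SAL lung, and Adra2a rose by 4.88 ± 0.72 (adjusted p = 0.000384). Of 25 adrenergic and muscarinic receptor genes no other rose (1 more did without PBS_SAL 61, PBS_SAL 105, HDM_SAL 52 or HDM_SAL 100). In that list 3 genes fell, with 1 left without PBS_SAL 64, PBS_SAL 80, PBS_SAL 104 or HDM_SAL 50 and 0 without HDM_SAL 54 or 99. Septin3, a cytoskeletal GTPase gene best known from neurons (GRCm39 chr15:82153003-82178775), shared the smallest adjusted p of all genes with Chia1. It was at 4.03 to 6.39 CPM (median 5.99) in PBS_SAL and 11.3 to 20.1 CPM (median 14.7) in HDM_SAL. The 2 groups were separate, and Septin3 rose by 1.45 ± 0.16 (adjusted p = 1.1e-05). Col6a5, a collagen VI chain, rose by 2.62 ± 0.42 (adjusted p = 0.000675) at a low level, 0.904 to 1.85 CPM in PBS_SAL and 3.34 to 17.7 CPM in HDM_SAL. The list of 24 collagen and elastic fibre genes does not hold it. None of the 24 passed (2 did without PBS_SAL 105, and 1 without HDM_CP 96 or 97), where 5.44% of all genes tested were called. Among them Col1a1 differed by 0.15 ± 0.20 (adjusted p = 0.736).

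Called genes of fibroblasts were lower, and the few called vessel genes were mostly lower. Over all genes tested 2.25% were called lower, so vessel lists of 10 and 20 genes would hold few in any case. Tcf21, a transcription factor of alveolar lipofibroblasts, was at 103 to 132 CPM (median 114) in PBS_SAL and 69.5 to 91 CPM (median 82.2) in HDM_SAL. All HDM_SAL lungs lay below all PBS_SAL lungs, and Tcf21 fell by 0.51 ± 0.12 (adjusted p = 0.00944). Of 21 fibroblast genes 6 fell and none rose, and their summed level was 7805 to 8815 CPM in PBS_SAL and 6215 to 7464 CPM in HDM_SAL, without overlap. The count was 1 without HDM_SAL 50 or 54 and 2 without PBS_SAL 80 or HDM_SAL 99, 3 with only the 13 libraries compared and 10 by limma on log2(TPM + 1), while the median, -0.27, stayed below 0 in each. Flt4, the vascular endothelial growth factor receptor of lymphatic vessels and capillaries, was at 73.9 to 95.3 CPM (median 79.2) in PBS_SAL and 38.9 to 69.9 CPM (median 58.4) in HDM_SAL. The groups did not overlap, and Flt4 fell by 0.48 ± 0.10 (adjusted p = 0.00524). Of 10 lymphatic endothelial genes 2 fell (1 without HDM_SAL 54, and 1 with only the 13 libraries compared). Of 20 capillary endothelial genes 2 fell; the number was 0 without PBS_SAL 80, HDM_SAL 50 or HDM_SAL 54, 1 without PBS_SAL 61, 64 or 104 or HDM_SAL 52 or 99, 9 without HDM_SAL 100, and 5 with DESeq2 or limma voom. Their median turned from -0.18 to 0.03 without HDM_SAL 50, 54 and 99. The endothelial junction genes Pecam1 (-0.15 ± 0.08, adjusted p = 0.321, or 0.0434 without HDM_SAL 100) and Cdh5 (-0.20 ± 0.11, adjusted p = 0.348) did not pass. Selp, the adhesion molecule P-selectin of activated endothelium and platelets, rose by 0.70 ± 0.18 (adjusted p = 0.0177), or 0.57 with an adjusted p of 0.0533 by limma on log2(TPM + 1) without a filter, and Vcam1 did not pass (0.20 ± 0.10, adjusted p = 0.264).

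Other genes that fell stood apart between the groups. Lims2, an adaptor of integrin adhesions, was at 98.9 to 126 CPM (median 108) in PBS_SAL and 66.2 to 85.6 CPM (median 76.5) in HDM_SAL. No library of one group lay within the range of the other, and Lims2 fell by 0.51 ± 0.08 (adjusted p = 0.000675). Tns2, a tensin, fell by 0.50 ± 0.10 (adjusted p = 0.00492), the vinexin gene Sorbs3 by 0.36 ± 0.06 (adjusted p = 0.00119) and Angptl2, a secreted angiopoietin-like protein, by 0.76 ± 0.13 (adjusted p = 0.00128), each without overlap between groups. Some smooth muscle genes rose. Actg2, the smooth muscle gamma actin, was at 12.6 to 25.9 CPM (median 16.3) in PBS_SAL and 23.7 to 44.1 CPM (median 31.3) in HDM_SAL. The groups overlapped slightly, and Actg2 rose by 0.99 ± 0.20 (adjusted p = 0.00382). Of 13 smooth muscle genes 3 rose and none fell, but without HDM_SAL 99 only 1 did, and the myosin gene Myh11 differed by 0.25 ± 0.16 (adjusted p = 0.386). Ptgfr, the receptor for prostaglandin F2 alpha, fell by 0.87 ± 0.17 (adjusted p = 0.0027).

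**Figure D4:**
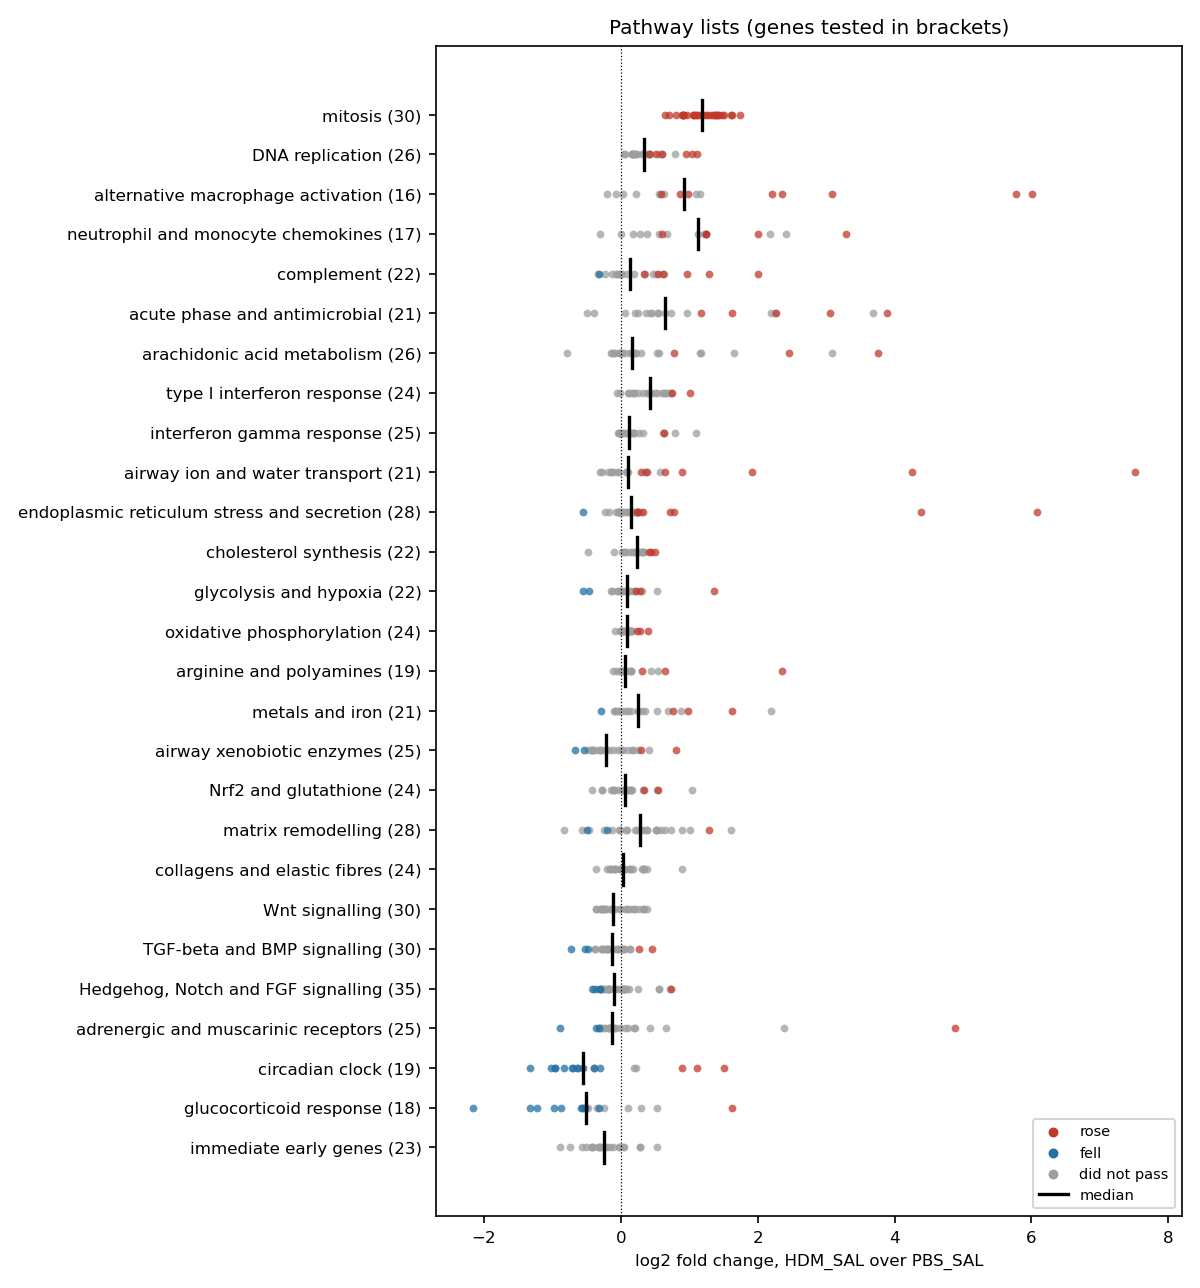
Log2 fold change of HDM_SAL over PBS_SAL for the measured genes of 27 pathway lists, 1 point per gene, red where the gene rose, blue where it fell and grey where it did not pass the test, with the list's median as a black bar. Mitosis is the list whose members lie together to the right, and the circadian clock and glucocorticoid lists have medians of -0.55 and -0.51.

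Falls were most frequent, among the lists, in the circadian clock and in genes induced by glucocorticoid hormone. Of 19 circadian clock genes 12 fell and 3 rose, with a median of -0.55, and the summed level was 1769 to 2629 CPM in PBS_SAL and 954 to 1670 CPM in HDM_SAL, without overlap. The count of falls was 5 without HDM_SAL 99, whereas the median then was -0.53. Per1, a repressor of the clock that is also induced by glucocorticoids, was at 113 to 300.5 CPM (median 152) in PBS_SAL and 35.5 to 108 CPM (median 65.8) in HDM_SAL. Without overlap between the groups, Per1 fell by 1.32 ± 0.30 (adjusted p = 0.00952). Per2 fell by 0.97 ± 0.22 (adjusted p = 0.0104). Bhlhe41, another repressor, was at 45.4 to 59.3 CPM (median 51.1) in PBS_SAL and 18.6 to 37.9 CPM (median 29.4) in HDM_SAL. Its groups did not overlap, and it fell by 0.83 ± 0.18 (adjusted p = 0.00673). The output factor gene Hlf fell by 0.96 ± 0.21 (adjusted p = 0.00861) and the repressor gene Ciart by 0.55 ± 0.12 (adjusted p = 0.00835). The 3 that rose are of the opposite arm. Arntl, which encodes the activator BMAL1, was at 3.56 to 11.4 CPM (median 6.64) in PBS_SAL and 8.22 to 25.3 CPM (median 14.7) in HDM_SAL. Most HDM_SAL lungs were higher and some overlapped, and Arntl rose by 1.11 ± 0.26 (adjusted p = 0.012). Npas2, a partner of BMAL1, rose by 1.51 ± 0.29 (adjusted p = 0.00286) and Nfil3, a repressor of output genes, by 0.90 ± 0.20 (adjusted p = 0.00918). Clock itself differed by 0.23 ± 0.08 (adjusted p = 0.105). The labels give no hour of the day for the collection of lungs, so an allergen effect on the clock and a difference in collection time cannot be told apart.

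BMAL1 and its partners bind E-boxes (CACGTG, which reads the same on both strands). The windows of Ciart and Per1 are shown because both genes fell and both hold that element, in capitals, on GRCm38.p6 from RefSeq, 5′ to 3′ on the gene's strand.
Ciart (chr3:95882179-95882478, minus strand): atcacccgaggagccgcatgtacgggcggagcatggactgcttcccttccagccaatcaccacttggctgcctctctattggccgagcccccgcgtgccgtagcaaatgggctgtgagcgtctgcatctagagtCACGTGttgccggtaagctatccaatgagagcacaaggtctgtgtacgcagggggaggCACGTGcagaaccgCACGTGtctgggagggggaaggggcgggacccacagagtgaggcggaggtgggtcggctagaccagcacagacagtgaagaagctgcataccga
Per1 (chr11:69098699-69098998, plus strand): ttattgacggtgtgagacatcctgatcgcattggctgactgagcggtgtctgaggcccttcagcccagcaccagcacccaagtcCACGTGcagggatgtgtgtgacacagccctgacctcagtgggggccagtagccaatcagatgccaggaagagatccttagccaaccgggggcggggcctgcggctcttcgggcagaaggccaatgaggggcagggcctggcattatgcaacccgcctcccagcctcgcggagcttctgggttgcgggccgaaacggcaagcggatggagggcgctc
Ciart has E-boxes at -116, -58 and -44 from the start, and Per1 has 1 at -166. Promoters were matched for 16 of the 19 clock genes, 21 windows, and 6 of these (28.6%) hold an E-box, against 7.15% of all windows. The other clock element, to which ROR and REV-ERB factors bind (RORE, TNGGTCA on either strand), is also in 6 of the 21, against 11% of all. The D-box (TTANGTAA on either strand), bound by Dbp, Tef, Hlf and NFIL3, is in 4.76% of the clock windows and 2.32% of all.

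Of 18 glucocorticoid-induced genes 9 fell and 1 rose, with a median of -0.51. Their summed level was 1675 to 2661 CPM in PBS_SAL and 1294 to 1641 CPM in HDM_SAL, again without overlap; Per1 is in both lists. In summed TPM the groups did overlap for this list, at 1408 to 2294 in PBS_SAL and 1202 to 1998 in HDM_SAL. Zbtb16, a zinc finger factor strongly induced by the hormone (GRCm39 chr9:48565597-48747522), was at 27.2 to 143 CPM (median 88.2) in PBS_SAL and 11.9 to 38.3 CPM (median 16.2) in HDM_SAL. At least 1 library of each group lay in the other's range, and Zbtb16 fell by 2.16 ± 0.40 (adjusted p = 0.0025). Hif3a, a brake on the hypoxia response, was at 4.17 to 10.0 CPM (median 4.96) in PBS_SAL and 1.1 to 3.08 CPM (median 2.39) in HDM_SAL. The groups did not overlap, and Hif3a fell by 1.22 ± 0.23 (adjusted p = 0.00194). Map3k6, a stress kinase gene, was at 30.4 to 46.2 CPM (median 40.6) in PBS_SAL and 14.2 to 25.5 CPM (median 20.4) in HDM_SAL. All HDM_SAL lungs lay lower, and it fell by 0.98 ± 0.14 (adjusted p = 0.000297), with the smallest p of any gene that fell. Tsc22d3, which encodes the anti-inflammatory protein GILZ, fell by 0.87 ± 0.18 (adjusted p = 0.00625), the co-chaperone gene Fkbp5 by 0.58 ± 0.14 (adjusted p = 0.011) and the factor genes Klf15 by 0.87 ± 0.19 (adjusted p = 0.00897) and Klf9 by 0.56 ± 0.12 (adjusted p = 0.00504). The phosphatase gene Dusp1 (-0.50 ± 0.27, adjusted p = 0.313) did not pass, and Lcn2 was the gene that rose. No single library moved the count of 9 by more than 1.5 times, and without HDM_SAL 50, 54 and 99 none passed, with a median of -0.40. The missing hour of collection limits this list as it does the clock list. An allergen effect on these genes and a difference in collection time cannot be told apart.

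**Figure D5:**
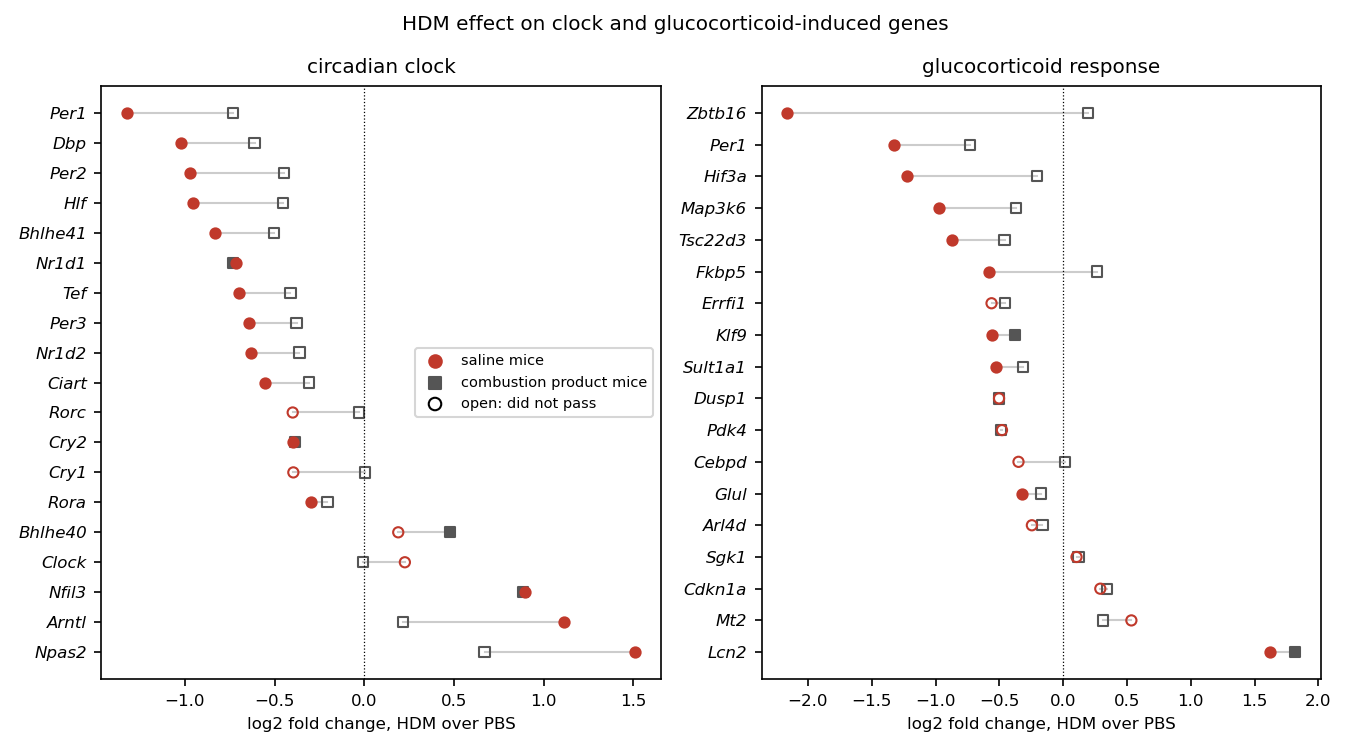
Log2 fold change by HDM of each circadian clock gene (left) and glucocorticoid-induced gene (right), as red circles in saline mice (HDM_SAL over PBS_SAL) and grey squares in combustion product mice (HDM_CP over PBS_CP), filled where the gene passed the test in that comparison. The saline values lie further from 0 for most genes that fell, with the widest gap at Zbtb16. Genes that fell were picked by their call in saline mice, which by itself favours larger values there. No gene passed the test of a difference between the settings.

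Genes of metabolism changed in both directions. Me1, the malic enzyme that makes NADPH, was at 61.6 to 75.3 CPM (median 65.2) in PBS_SAL and 92 to 156 CPM (median 112) in HDM_SAL. Again the groups lay wholly apart, and Me1 rose by 0.83 ± 0.11 (adjusted p = 6.95e-05). Gatm, the first enzyme of creatine synthesis, rose by 1.75 ± 0.27 (adjusted p = 0.000382), with 3.2 to 6.4 CPM in PBS_SAL and 9.45 to 28.3 CPM in HDM_SAL, and Naaa, a lysosomal amidase, by 0.48 ± 0.07 (adjusted p = 0.000124). In iron and copper handling the ceruloplasmin gene Cp rose by 0.77 ± 0.12 (adjusted p = 0.000637) and the metalloreductase gene Steap4 by 0.98 ± 0.18 (adjusted p = 0.00161), both without overlap. Egln3, an oxygen sensor, rose by 1.35 ± 0.24 (adjusted p = 0.00126), and Pfkfb3, an activator of glycolysis, fell by 0.55 ± 0.12 (adjusted p = 0.00552). Ephx1, the microsomal epoxide hydrolase, was at 208 to 262 CPM (median 226) in PBS_SAL and 131 to 176 CPM (median 162) in HDM_SAL. All HDM_SAL lungs were lower, and Ephx1 fell by 0.54 ± 0.09 (adjusted p = 0.000729), while the flavin monooxygenase gene Fmo2 fell by 0.67 ± 0.16 (adjusted p = 0.0118). Of 25 airway xenobiotic enzyme genes these 2 fell and 2 rose, among them the aldehyde dehydrogenase gene Aldh1a7 (0.80 ± 0.16, adjusted p = 0.00446). Over all genes tested 3.19% were called higher and 2.25% lower, so a list of this size would hold few in any case. In this list 1 gene rose without PBS_SAL 64, 79, 80 or 81 or HDM_SAL 50, 54 or 99, and 7 fell without HDM_CP 98. The median of that list was -0.22 (-0.14 without HDM_SAL 100), its summed level was 5872 to 7906 CPM in PBS_SAL and 4501 to 6854 CPM in HDM_SAL, and DESeq2 called 6 falls. Of 22 cholesterol synthesis genes 20 had a positive change and the median was 0.23. In that list 3 genes rose, where 3.19% of all genes tested did, and none fell. They include Idi1, the isopentenyl diphosphate isomerase (0.44 ± 0.10, adjusted p = 0.0127), and Sqle, the squalene epoxidase (0.50 ± 0.13, adjusted p = 0.0201). The count was 1 without PBS_SAL 80, HDM_SAL 50 or HDM_SAL 54, 5 without PBS_CP 76, and 7 without HDM_SAL 72 or with only the 13 libraries compared; on log2(TPM + 1) without a filter neither Idi1 (adjusted p = 0.0515) nor Sqle (adjusted p = 0.0784) passed. The medians of the lists for glycolysis (0.08), oxidative phosphorylation (0.10), Nrf2 targets and glutathione (0.06) and ribosomal proteins (-0.05) lay near the 0.01 of all genes.

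The HDM effect could be read again in mice that received combustion products, which share no library with the mice above. Both comparisons use 1 spread per gene, estimated over all 27 libraries, which favours calls of the same gene in both. Of the 786 genes that rose in saline mice, 770 (98.0%) had the same sign in HDM_CP against PBS_CP and 469 (59.7%, or 34.0% of the 1378 that rose there) were called; in that comparison 7.87% of all genes tested were called, 5.6% higher and 2.27% lower. Of the 553 that fell, 522 (94.4%) had the same sign, 136 (24.6%, or 24.3% of 560) were called and 1 was called in the opposite direction. The share of all genes tested with the same sign in both comparisons was not computed. The median change of the saline mice's rises was 0.60 in HDM_CP against PBS_CP, and that of the falls -0.19. Those genes were picked by their call in saline mice, which by itself favours smaller values in the other comparison. Chia1 was at 2.72 ± 0.31, Septin3 at 1.41 ± 0.15, Slc5a1 at 2.35 ± 0.26 and C3 at 1.75 ± 0.18 in that comparison (adjusted p of at most 1.71e-05), and the median of the mitotic genes was 1.16. That of the ciliated cell genes was 0.01. The clock list had a median of -0.36 and the glucocorticoid list one of -0.19. Zbtb16 was at 0.20 ± 0.37 (adjusted p = 0.844) and Fkbp5 at 0.27 ± 0.13 (adjusted p = 0.241). The difference of the HDM effect between the 2 settings was tested as an interaction in edgeR, and no gene passed (0 of 24629), with 1571 genes at an unadjusted p under 0.05; DESeq2 called 5. For Zbtb16 that difference was 2.36 ± 0.54 (unadjusted p = 0.000192, adjusted p = 0.694), and for Fkbp5 0.85 ± 0.19 (unadjusted p = 0.000103, adjusted p = 0.694).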

How the data were processed

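PolyA RNA of whole lung from 27 mice was sequenced with 20 M read pairs planned per library and reads of 150 bases, per the labels' protocols. The submitters' processing notes list STAR, StringTie 2 and GRCm39. The authors deposited estimated counts per gene (unit: estimated counts; rounded here to whole numbers) and TPM (scaled for transcript length and library by the authors); the column names match all 27 sample titles. Library totals of 56.3 M to 84.5 M are more than the pairs planned, and how they were scaled is not stated in the sources used. Dividing them by 4 was therefore tried.

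Genes passing edgeR's filterByExpr (minimum count of 10) were tested over all 27 libraries with 4 group means, TMM scaling and robust quasi-likelihood (edgeR 4.0.16, R 4.3.3); the shared spread comes from all groups. DESeq2 1.42.0 and limma 3.58.1 were alternatives, as were other scalings, filters, TPM pseudocounts and leaving out libraries. The scripts were tested on simulated data. Genes were named by a rule over size of change, p and membership of 72 lists of genes by cell type or pathway; it lets any member of a cell type list be named, called or not. The members and lists were chosen with earlier results of these data known. Outside the rule, and chosen after their values were seen, are Arntl, Fkbp5, Mki67, Top2a, Cdc20, Ccl2, Cxcl2, Clock, Col1a1, Dusp1, Ifit1, Ighg1, Mcm2, Pcna, Ptgs2 and Cftr. A listed gene is not reported here. Single values were compared with an exact permutation test, two-sided.

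Promoter windows came from RefSeq on GRCm38.p6 and were matched by symbol. The motifs searched, on both strands, were the CHR (TTTGAA), the CCAAT box (CCAAT), the E-box (CACGTG), the D-box (TTANGTAA) and the RORE (TNGGTCA), which may overlap.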

Additional observations from a re-analysis of the deposited data

Results flagged for a closer look

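In 13 of 294 sets of values (4.42%), a single library stood far from the others of its group by Dixon's test. Each set was a named gene or the summed level of a list in 1 group, and chance alone gives about 1 in 20. No explanation was weighed for the 13, all of them named genes. In PBS_SAL 105, Adgre1 was at 75.3 CPM (the others at 15.9 to 23.6 CPM), Egln3 at 1.58 CPM (0.924 to 1.13 CPM), Flt3 at 11.2 CPM (6.14 to 7.77 CPM) and Ltf at 27 CPM (4.82 to 8.44 CPM). In PBS_SAL 61, Hif3a was at 10.0 CPM (4.17 to 5.29 CPM) and Septin3 low at 4.03 CPM (5.35 to 6.39 CPM). In PBS_SAL 79, Sftpa1 was at 2480 CPM (1970 to 2140 CPM). In HDM_SAL 99, C3 was at 2730 CPM (1340 to 1740 CPM), Ccr2 at 137 CPM (79.1 to 94.6 CPM) and Ifit1 at 60 CPM (20 to 30.1 CPM). In HDM_SAL 54, Cdc20b was at 6.87 CPM (1.83 to 2.97 CPM). In HDM_SAL 72, Ciart was at 25.1 CPM (16.8 to 19.1 CPM), and in HDM_SAL 52, Hif3a was low at 1.1 CPM (2.35 to 3.08 CPM). C3, Ccr2, Cdc20b, Ciart, Egln3, Hif3a, Ltf, Septin3 and Sftpa1 were called with each of these libraries left out in turn.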

How the results depend on the processing

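No paired analysis was possible because the groups share no library numbers. For HDM_SAL against PBS_SAL, where the main test called 1339 genes (786 higher, 553 lower), log2(TPM + 1) gave 521 higher and 849 lower, and without a filter 764 in all with 330 higher. log2(TPM + 0.1) gave 846 lower, DESeq2 888 lower, limma voom with quality weights 835 lower, no filter on low counts 274 lower, and a block for the 3 runs of numbers in the labels 343 lower. Without HDM_SAL 50, 54 and 99 there were 34 (30 higher, 4 lower), and testing against a 2-fold change gave 32, all 32 higher and 0 lower. Leaving out 1 library at a time gave 602 to 1656 in all, 406 to 959 higher and 196 to 746 lower. For HDM_CP against PBS_CP, log2(TPM + 1) without a filter gave 1194 (825 higher, 369 lower), no filter on low counts 336 lower, voom 925 lower and the 2-fold limit 25, all 25 higher and 0 lower. Leaving out 1 library gave 1207 to 2600 in all, 950.0 to 1617 higher and 257 to 983 lower. The interaction had 5 genes with DESeq2 and 0 to 1 with 1 library left out.

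Of the values of single named genes under these alternatives, 5661 kept direction and side of the threshold, 261 no longer passed, 22 passed newly and 16 reversed; the reversals were all in genes that did not pass. Without HDM_SAL 50, 54 and 99 these were Cd3e (0.15), Cd8a (0.12), Cdh5 (0.065), Pecam1 (0.050), Krt8 (-0.16), Scgb1a1 (-0.10) and Sftpc (-0.052). With 1 library left out Cd3e ranged from -0.32 to 0.0069 (without HDM_SAL 54), Cd8a from -0.22 to 0.018 (without HDM_SAL 54) and Sftpc from -0.0054 (without HDM_SAL 50) to 0.094. On log2(TPM + 1), with or without a filter, Csf1r was at -0.056 and Sftpc at -0.012, and on log2(TPM + 0.1) they were at -0.057 and -0.012. The cause of each was not tested. At 6 against 7 lungs, changes close to the SEs given were not detectable.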

Other observations

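The genes of this paragraph fell outside the rule for named genes or were picked from it after their values were seen. Rnase2a, a ribonuclease gene of the eosinophil-associated family with close paralogs, was at 0 to 0.489 CPM (median 0.141) in PBS_SAL and 3.63 to 39.4 CPM (median 11.5) in HDM_SAL. It rose by 6.28 ± 0.95 (adjusted p = 0.000509) by edgeR and missed the threshold by limma voom (adjusted p = 0.129); Epx and Prg3 were at 0 counts in the same libraries. Cd209e, a relative of the lectin gene Cd209d, rose by 5.24 ± 0.77 (adjusted p = 0.000321) and was at 0.0424 to 0.196 CPM in PBS_SAL and 1.31 to 7.51 CPM in HDM_SAL. Apob, which encodes the core protein of lipoproteins, was at 0.372 to 1.77 CPM (median 0.870) in PBS_SAL and 2.26 to 15.7 CPM (median 6.51) in HDM_SAL. It rose by 3.04 ± 0.41 (adjusted p = 0.000124), and the change was 1.96 (adjusted p = 0.0344) without HDM_SAL 50, 54 and 99, the first of which had high liver transcripts. Jaml, an adhesion molecule gene of leukocytes, rose by 0.55 ± 0.09 (adjusted p = 0.000509), the inflammasome sensor gene Nlrp1b by 1.15 ± 0.19 (adjusted p = 0.000729) and Cep55, which acts in the last step of cell division, by 1.68 ± 0.25 (adjusted p = 0.000297). Each of these 6 genes was also called without HDM_SAL 50, 54 and 99, by edgeR's quasi-likelihood test as above.

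Some markers that stayed low in saline mice were higher in single libraries of mice given HDM and combustion products. Estimated counts of Prg2 ranged from 9 to 271 in HDM_CP, against 0 to 22 in HDM_SAL, and those of Ccr3 from 8 to 895, against 0 to 56. Counts of Ighg1 ranged from 82 to 35946 in HDM_CP and from 86 to 325 in HDM_SAL. These differences between HDM_CP and HDM_SAL were not tested here.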
